A study of Mus musculus with 12 samples.

Results

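The genes of the translation initiation factors were taken from the expression tables as the rows whose symbol begins with Eif and a digit from 1 to 6, leaving out the eIF2 kinases, the eIF4E-binding proteins and the eIF4E transporter. This rule found 50 of 22549 genes, each with 1 row in all 12 libraries. Expression was measured by RNA-seq in mouse spermatogonial stem cells (mSSC), from which sperm production is renewed, and in cells derived from them, in 6 groups of 2 biological replicates. The cells came from the testes of wild-type male DBA/C57 F1 pups aged 5 to 7 days. In a treatment experiment, mSSC plated overnight on laminin were given 100 nM retinoic acid (RA) together with 0.25 mg/ml cycloheximide (CHX), 100 nM RA without CHX, or vehicle, each for 24 h. No group with CHX alone was among the samples. In an induction experiment, mSSC carrying GFP were grown over mitomycin-inactivated pup Sertoli cells, the nurse cells of the seminiferous tubule. Induced spermatocytes (iSC) were the GFP-positive and c-KIT-negative fraction of day 6, induced differentiating spermatogonia (idSG) were the GFP-positive and c-KIT-positive fraction of day 3, and untreated mSSC served as their starting point.

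Initiation is the step at which a ribosome is placed on the start codon of a messenger RNA. The factor eIF2 carries the initiator tRNA to the small ribosomal subunit and is recharged with GTP by eIF2B. The large complex eIF3, with eIF1, eIF1A and eIF5, holds the small subunit ready and helps it to pick the start codon. The cap-binding protein eIF4E, the scaffold eIF4G and the RNA helicase eIF4A bring the messenger to that subunit, and eIF5B joins the large subunit to it. RA is the vitamin A derivative that sets spermatogonia on the path to meiosis, and CHX blocks the elongating ribosome. Several genes named Eif have other main roles. Eif2c1 to Eif2c4 are older symbols of the Argonaute genes of small RNA silencing, Eif4a3 encodes the helicase at the core of the exon junction complex, eIF6 holds back the large subunit, and eIF5A acts chiefly during elongation.

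The deposited values were FPKM, a fragment density scaled to transcript length and to library size, and they summed to between 459580 and 540064 per library. The absolute depth of the libraries is unknown. Changes below are log2 changes of FPKM + 1 with their standard error (SE), which understate the change of low genes, and a change counts as called where limma gave an adjusted p (Benjamini-Hochberg, over all genes tested) under 0.05. The experiments were fitted apart, and p-values measure the spread between replicate libraries. The RA target Stra8 had 928.1 and 904 FPKM with RA and CHX, 537.5 and 584.4 FPKM with RA, and 22.94 and 24.36 FPKM with vehicle. Its levels in the induction stages were 11.74 and 6.267 FPKM in mSSC, 1450 and 1191 FPKM in idSG, and 358.4 and 121.3 FPKM in iSC. Each of 7 germ cell markers was at 1 FPKM or more in all 12 libraries, though their levels differed between stages. Sertoli cell markers were nearly silent in mSSC and the treated cells and high in the sorted fractions, and their values stand beside the induction results.

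The initiation factor genes were expressed at high levels, and together they held 1.11% to 1.38% of the FPKM sum of a library. Eif4a1, the major helicase gene, was the most abundant, with 519.2 to 886.7 FPKM over the 12 libraries. Next came Eif5a with 378.2 to 610.8 FPKM and Eif1, the start codon scanning factor, with 239.4 to 460.8 FPKM. The Argonaute genes were among the lowest of the expressed members, from 0.5533 FPKM for Eif2c4 in a vehicle library to 19.87 FPKM for Eif2c1 in an iSC library, and Eif4e3, an atypical cap-binding gene, lay within that range. Eif4e1b, which encodes an oocyte form of the cap-binding protein, was at or near 0 in every library, with at most 0.1559 FPKM. It fell under the filter of a mean of 1 FPKM, so 49 members were tested in each experiment.

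RA alone was compared with vehicle to ask how the initiation factor transcripts moved in the first day of the RA response. With RA, 35 of 49 members fell and 4 rose, while 10 were not called. Over all 12339 genes tested, 29.9% were called lower and 22.8% higher. The median log2 change of the members was -0.16, beside -0.02 over all genes, and of the members Eif1a and Eif2c2 fell and Eif2c4 rose by 0.5 or more, where 6.04% and 3.6% of all genes did. All 13 eIF3 subunit genes fell, by 0.15 to 0.33 on the log2 scale, although under quantile normalization 3 were called lower and 2 had a change above 0. Falls were also called for 3 of 4 eIF2 genes, 3 of 5 eIF2B genes and 2 of 3 eIF4G genes. The RA libraries had lower FPKM sums, at 490390 and 476555, than the vehicle libraries, at 519763 and 540064. The part of this difference in the falls of the members was not tested. Across the 6 fits that each left out 1 library, 27 of the 35 falls and all 4 rises were called every time, while the falls of Eif3i, Eif2s1 and Eif4e were called in 1 fit each, that of Eif2b2 in 2 and that of Eif2b4 in 0. Quantile normalization left 14 of 49 members called lower and 6 higher, where 2781 of the 12339 genes tested were called lower and 3458 higher. The medians under it were -0.04 for the members and 0.03 for all genes. Higher calls then made up 55.4% of the calls over all genes, against 43.3% in the deposited values. A fit that pooled the spread of all 12 libraries called 2 members lower and 0 higher.

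RA with CHX was compared with vehicle and with RA, comparisons that share the RA and CHX libraries. Against vehicle, 27 members rose and 12 fell, where 36.1% of all genes were called higher and 43.2% lower. The median change was 0.15 for the members and -0.05 for all genes, the median of all genes being 0.06 under quantile normalization. Against RA, 35 members rose and 8 fell, where 35.1% of all genes were called higher and 42.5% lower, and the medians were 0.34 for the members and -0.05 for all genes, against 0.20 and 0.02 under quantile normalization. Of these calls, 15 rises and 3 falls reached a log2 change of 0.5, Eif5, Eif4e3 and Eif4g2 being the falls, with Eif1ad just short of it at -0.50 after rounding. Over all genes, 12.9% rose and 21.9% fell by that much. Against vehicle, 11 members rose and 7 fell by 0.5 or more, beside 14.1% and 23.3% of all genes. The plot of log2 changes in the treatment comparisons shows most members right of 0 with CHX and a few far to the left.

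**Figure D1:**
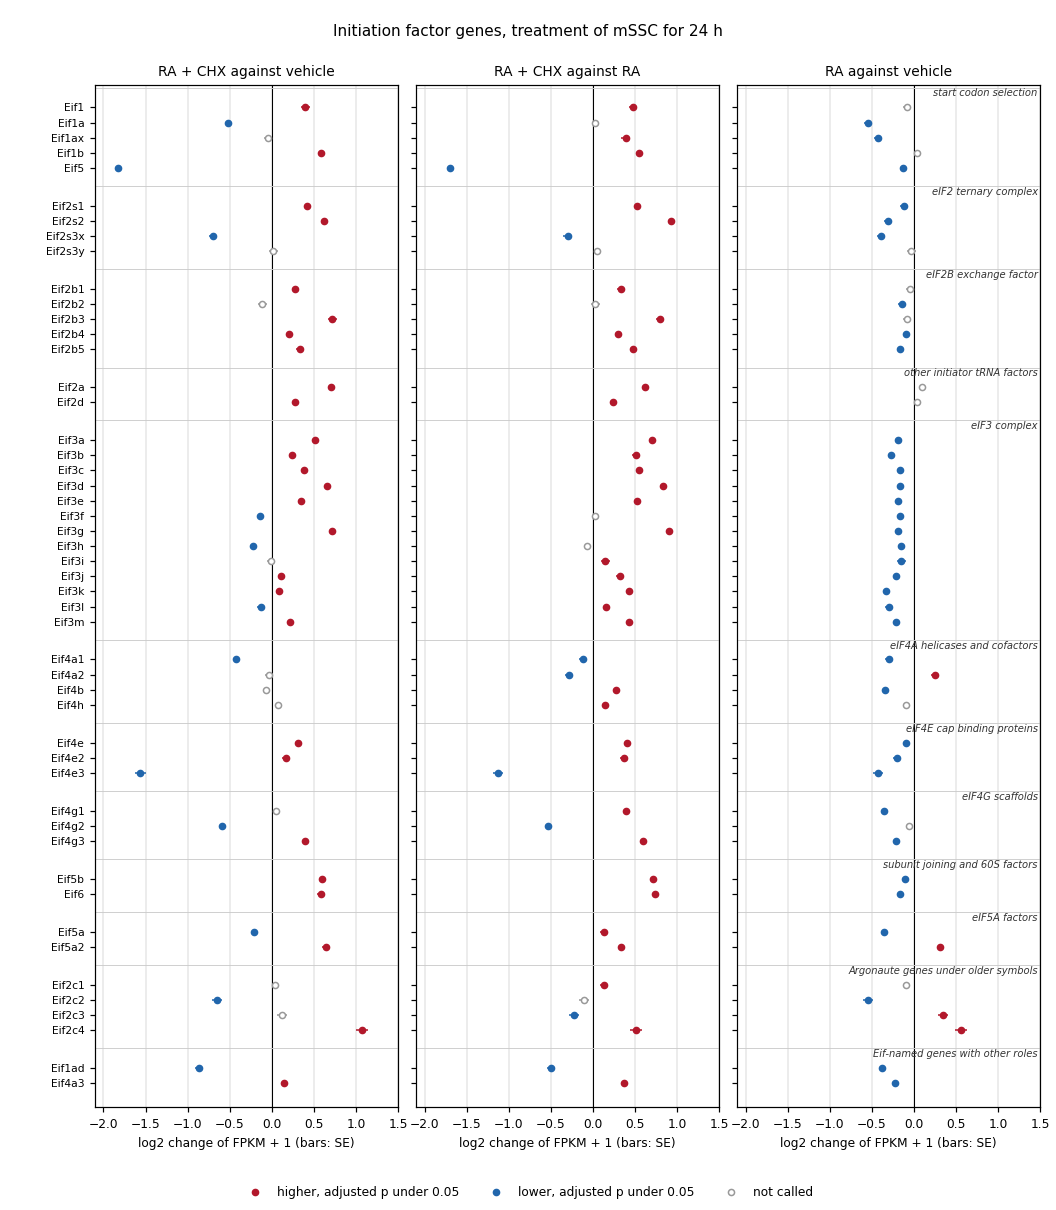
Log2 change of FPKM + 1 (x axis, bars are SE) of the 49 tested members (rows, grouped by role) in RA with CHX against vehicle, RA with CHX against RA, and RA against vehicle. Red points were called higher and blue points lower at an adjusted p under 0.05, and open points were not called. Eif5 at -1.83 and -1.70 and Eif4e3 at -1.56 and -1.13 stand apart on the left of the CHX panels.

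The order of the group means showed the same pattern. For 26 of 49 members (53.1%) the mean was highest with RA and CHX, intermediate with vehicle and lowest with RA. This order held for 18.3% of the 12339 genes tested. The order from vehicle down to RA and then to RA with CHX, the most frequent over all genes at 27.1%, was found for 8 members (16.3%), Eif5, Eif4e3, Eif4g2, Eif1ad, Eif2s3x and Eif4a1 among them.

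Among the factors that select the start codon, Eif5 had the greatest fall of all members with CHX. Eif5 encodes the protein that triggers GTP hydrolysis by eIF2 when the start codon is met. It had 42.2 and 42.44 FPKM with RA and CHX, 138.8 and 140.5 FPKM with RA, and 154.5 and 150.7 FPKM with vehicle. The groups did not overlap, and the RA and CHX libraries lay far below the others. The log2 change was -1.83 ± 0.03 against vehicle (adjusted p = 2.34e-08), -1.70 ± 0.03 against RA (adjusted p = 6.89e-08) and -0.13 ± 0.03 for RA against vehicle (adjusted p = 0.00851). When any 1 library was left out, the change against vehicle stayed between -1.84 and -1.81.

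The 250 bases before the annotated start of Eif5 and of Eif5a2, which moved in opposite directions with CHX, are given here from RefSeq on GRCm38.p6, 5′ to 3′ on the strand of the gene. Capitals mark CACGTG, the core E-box, and CCAAT or ATTGG, the CCAAT box on either strand.
Eif5, chr12:111537851-111538100, plus strand: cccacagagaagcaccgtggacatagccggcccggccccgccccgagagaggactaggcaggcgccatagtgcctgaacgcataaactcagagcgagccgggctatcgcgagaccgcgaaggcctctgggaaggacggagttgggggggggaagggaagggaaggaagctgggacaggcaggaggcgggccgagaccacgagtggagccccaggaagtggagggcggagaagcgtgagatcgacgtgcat
Eif5a2, chr3:28781027-28781276, plus strand: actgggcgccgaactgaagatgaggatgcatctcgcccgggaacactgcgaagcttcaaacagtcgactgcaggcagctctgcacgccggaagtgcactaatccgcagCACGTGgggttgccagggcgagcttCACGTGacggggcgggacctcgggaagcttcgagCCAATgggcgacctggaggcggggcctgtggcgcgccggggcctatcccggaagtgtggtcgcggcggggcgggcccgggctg
The Eif5 window held neither motif, and the Eif5a2 window held 2 copies of CACGTG and 1 CCAAT box. CACGTG, which reads the same on both strands, was found in 9 of the 40 members with a promoter window (22.5%). It was found in 6.86% of all 27025 genes with such a window, which were not limited to expressed genes. Of the 9 members, Eif1b, Eif3k, Eif4e and Eif5a2 were called higher in RA with CHX against vehicle, and Eif3f, Eif4a1 and Eif5a lower. Eif4g1 and Eif4h were not called, and 36.1% of all genes were called higher and 43.2% lower. The part of the motif in these changes was not tested. The CCAAT box was found in 12 of 40 members (30%) and in 37.5% of all genes with a window. Members without a window were Eif1a, Eif2b3, Eif2c2, Eif3e, Eif3h, Eif3i, Eif4e1b, Eif4e3, Eif4g2 and Eif6. These are letter matches and not measured binding.

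Eif1 and its paralog Eif1b, whose products guard the fidelity of start codon choice, rose with CHX. Eif1b had 366.1 and 366.9 FPKM with RA and CHX, 250.3 and 248.5 FPKM with RA, and 246.1 and 239.6 FPKM with vehicle. All RA and CHX libraries were above the others, and the change was 0.59 ± 0.03 against vehicle (adjusted p = 2.18e-06). Eif1 rose by 0.40 ± 0.05 against vehicle (adjusted p = 0.000241). Neither Eif1 nor Eif1b was called in RA against vehicle, with changes of -0.08 and 0.04. The genes of eIF1A, which keeps the scanning subunit in an open state, fell with RA. Eif1a had 29.78 and 29.13 FPKM with RA and CHX, 29.64 and 27.96 FPKM with RA, and 43.73 and 41.73 FPKM with vehicle, so that the vehicle libraries were high and both RA groups overlapped. Its change was -0.55 ± 0.04 for RA against vehicle (adjusted p = 9.77e-05). The X-linked copy Eif1ax had 133.4 and 135.2 FPKM with RA and CHX, 106.4 and 98.57 FPKM with RA, and 142.1 and 134.2 FPKM with vehicle, the RA libraries being the low ones. It fell by 0.43 ± 0.05 with RA (adjusted p = 0.000374) and was not called in RA with CHX against vehicle, at -0.04 ± 0.05.

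The subunits of eIF2 diverged. Eif2s2, the beta subunit gene, had 137.7 and 137.1 FPKM with RA and CHX, 71.79 and 71.22 FPKM with RA, and 91.83 and 86.1 FPKM with vehicle. These groups did not overlap: the level was highest with CHX and lowest with RA alone. The change was 0.93 ± 0.04 in RA with CHX against RA (adjusted p = 8.33e-07), the largest rise of any member in that comparison, and -0.31 ± 0.04 in RA against vehicle (adjusted p = 0.000547). Eif2s1, the alpha subunit that the stress kinases phosphorylate, rose by 0.53 ± 0.04 in RA with CHX against RA (adjusted p = 1.73e-05). The gamma subunit, which binds GTP and the initiator tRNA, has an X-linked gene Eif2s3x and a Y-linked gene Eif2s3y. Eif2s3x had 16.01 and 15.19 FPKM with RA and CHX, 19.78 and 19.19 FPKM with RA, and 27.12 and 24.78 FPKM with vehicle, with no overlap of groups. It fell by 0.70 ± 0.05 in RA with CHX against vehicle (adjusted p = 1.33e-05) and by 0.39 ± 0.05 in RA against vehicle (adjusted p = 0.000917). Eif2s3y was not called in any treatment comparison and had 36.47 and 39.21 FPKM with RA and CHX, 37.5 and 35.52 FPKM with RA, and 37.99 and 36.47 FPKM with vehicle, which overlapped throughout. The Y-linked gene therefore held 70.8% ± 1.83 of their summed FPKM with RA and CHX, 65.2% ± 0.387 with RA and 58.9% ± 0.845 with vehicle (SD, n = 2). Of the 50-base transcript words of Eif2s3x 35.4% also occur in Gm2223, and of those of Eif2s2 21.9% occur in Gm9892, so that the levels of both genes and this share are less certain.

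The exchange factor eIF2B has 5 subunit genes. Of these, 4 rose in RA with CHX against vehicle and against RA, where 36.1% and 35.1% of all genes were called higher. At an adjusted p under 0.05 in limma 0 fell, where 43.2% and 42.5% of all genes were called lower at that threshold. At an unadjusted p under 0.05 in limma 0 fell as well. Eif2b3, the gamma subunit gene, had 48.83 and 50.79 FPKM with RA and CHX, 28.17 and 28.04 FPKM with RA, and 31.57 and 28.13 FPKM with vehicle. The RA and CHX libraries were the high ones, and those of RA and vehicle overlapped. Its change was 0.72 ± 0.05 against vehicle (adjusted p = 1.35e-05) and 0.80 ± 0.05 against RA (adjusted p = 9.1e-06). Eif2b5, the catalytic subunit gene, rose by 0.33 ± 0.04 against vehicle (adjusted p = 0.00014), and Eif2b2 was not called, at -0.11 ± 0.05. Eif2a and Eif2d encode proteins that can deliver initiator tRNA without eIF2, and both rose with CHX. Eif2a had 50.29 and 51.19 FPKM with RA and CHX, 32.79 and 32.74 FPKM with RA, and 31.34 and 29.96 FPKM with vehicle, and it rose by 0.71 ± 0.03 against vehicle (adjusted p = 1.45e-06). The RA and CHX libraries were again the high ones. Exons of Eif2a overlap those of Serp1 on the other strand in the annotation, and strand handling in the counting is not given in the sources used here. The same limit holds for Eif1ad, Eif1b, Eif2b4, Eif2c2, Eif2d, Eif3d, Eif3j, Eif3m, Eif4a2, Eif5b and Eif6, which also overlap genes on the other strand.

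The eIF3 subunit genes moved unevenly with CHX. The 13 subunit genes summed to 2757 and 2763 FPKM with RA and CHX, 2033 and 1993 FPKM with RA, and 2329 and 2325 FPKM with vehicle. In RA with CHX against RA, 11 of 13 rose with a median change of 0.43, where 35.1% of all genes were called higher and 42.5% lower. Eif3f and Eif3h were not called, at 0.02 and -0.07. In RA with CHX against vehicle, 9 rose and 3 fell, with a median of 0.22, where 36.1% of all genes were called higher and 43.2% lower. Under quantile normalization 9 rose and 2 fell against RA with a median of 0.20, and 7 rose and 3 fell against vehicle. Of the 12339 genes tested, it called 4964 higher and 4573 lower against RA, and 5391 higher and 4431 lower against vehicle. Eif3d, which can itself bind the cap, had 411.2 and 409 FPKM with RA and CHX, 229.5 and 231 FPKM with RA, and 259.7 and 259.2 FPKM with vehicle. Eif3g, a subunit of the scanning module, had 355.7 and 351.7 FPKM with RA and CHX, 185 and 189.7 FPKM with RA, and 211 and 216.3 FPKM with vehicle. For both genes the groups were apart, highest with CHX and lowest with RA. Eif3g rose by 0.91 ± 0.03 against RA (adjusted p = 5.72e-07) and Eif3d by 0.83 ± 0.03 (adjusted p = 6.09e-07). Eif3h, part of the outer arm of the complex, had 223.3 and 224.2 FPKM with RA and CHX, 238.4 and 232.4 FPKM with RA, and 263.3 and 258.3 FPKM with vehicle. It fell by 0.22 ± 0.03 in RA with CHX against vehicle (adjusted p = 0.000379), and Eif3f and Eif3l fell with it, by 0.14 and 0.13. The ratio between subunits was therefore not fixed: Eif3d stood at 1.83 times Eif3h in the CHX group, 0.978 times with RA and 0.995 times with vehicle in mean FPKM, which is per length. Exon sequence is shared with other annotated genes for Eif3e, Eif3h, Eif3m and Eif3j, at 22%, 26.2%, 34.6% and 39.8% of their 50-base transcript words, so their levels are less certain, as are those of Eif1 at 21.4% and Eif4a3 at 23.6%.

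**Figure D2:**
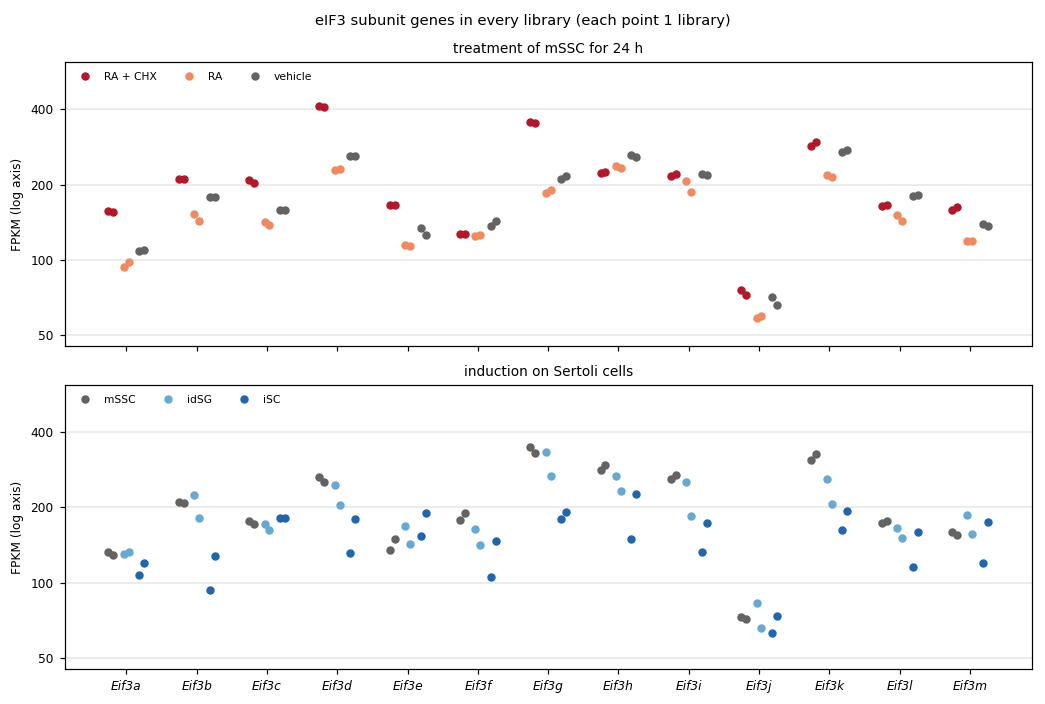
FPKM (y axis, log scale) of the 13 eIF3 subunit genes in each library. The upper panel shows RA with CHX, RA and vehicle, and the lower panel shows mSSC, idSG and iSC, each point being 1 library. In the deposited values the mean of RA lies under that of vehicle for all 13 genes, while RA with CHX lies far above vehicle for Eif3d and Eif3g and below it for Eif3f, Eif3h and Eif3l.

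Of the factors that load the messenger, the helicase genes went opposite ways with RA. Eif4a1 had 547.7 and 573.2 FPKM with RA and CHX, 613.5 and 604.1 FPKM with RA, and 746.5 and 748.6 FPKM with vehicle. Its paralog Eif4a2 had 82.81 and 80.23 FPKM with RA and CHX, 95.65 and 102.3 FPKM with RA, and 79.47 and 86.98 FPKM with vehicle. Eif4a1 was highest with vehicle with no overlap, and Eif4a2 was highest with RA alone, its other groups overlapping. With RA, Eif4a1 fell by 0.30 ± 0.04 (adjusted p = 0.000938) and Eif4a2 rose by 0.25 ± 0.05 (adjusted p = 0.00639), and the fall of Eif4a1 was not called under quantile normalization, at -0.01. Eif4a2 held 12.7% ± 0.604 of the summed FPKM of the pair with RA and CHX, 14% ± 0.707 with RA and 10% ± 0.557 with vehicle (SD, n = 2). The pair shared 0% of their 50-base transcript words, but 64.9% of those of Eif4a1 also occur in the pseudogene Eif4a-ps4, so its level is uncertain. The helicase cofactor genes Eif4b and Eif4h rose in RA with CHX against RA, by 0.28 and 0.15, and were not called against vehicle.

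All 3 tested cap-binding genes were called lower with RA, where 29.9% of all genes were, and they split with CHX. Eif4e, the main cap-binding gene, had 116.4 and 118.6 FPKM with RA and CHX, 89.55 and 87.56 FPKM with RA, and 96.1 and 93.07 FPKM with vehicle. Its change with RA was small, at -0.09, and was 0.04 under quantile normalization. The call was lost in limma without the variance trend (adjusted p = 0.0904) and with only the 2 groups compared (adjusted p = 0.0689). Eif4e2, which encodes a cap-binding repressor, had 32.06 and 31.8 FPKM with RA and CHX, 25.54 and 23.38 FPKM with RA, and 28.03 and 28.53 FPKM with vehicle. Both were highest with CHX and lowest with RA. Eif4e3 was instead lowest with CHX, at 2.658 and 2.578 FPKM, against 7.25 and 6.628 FPKM with RA and 9.851 and 9.483 FPKM with vehicle. Its change was -1.56 ± 0.06 in RA with CHX against vehicle (adjusted p = 5.98e-07) and -0.43 ± 0.06 in RA against vehicle (adjusted p = 0.00121). The share of Eif4e3 in the summed FPKM of Eif4e, Eif4e2 and Eif4e3 was 1.72% ± 0.0522 with RA and CHX, 5.78% ± 0.204 with RA and 7.29% ± 0.0838 with vehicle (SD, n = 2). Exons of Eif4e3 overlap Gm20696 on the same strand, in which 11.5% of its 50-base transcript words occur, so its level is less certain.

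The scaffold genes differed from each other as well. Eif4g2, whose product lacks the eIF4E site and serves cap-independent initiation, had 101.4 and 100.3 FPKM with RA and CHX, 146.9 and 145.5 FPKM with RA, and 155.1 and 149.6 FPKM with vehicle. It fell by 0.59 ± 0.03 in RA with CHX against vehicle (adjusted p = 2.08e-06) and was not called with RA alone, at -0.06 ± 0.03. Eif4g1, the main scaffold gene, had 132.3 and 127.7 FPKM with RA and CHX, 98.46 and 99.4 FPKM with RA, and 126.1 and 125.8 FPKM with vehicle. It was the RA libraries that were low here, with a change of -0.35 ± 0.03 in RA against vehicle (adjusted p = 0.000167). Eif4g3, a further scaffold gene, had 22.08 and 21.96 FPKM with RA and CHX, 13.8 and 14.51 FPKM with RA, and 16.96 and 15.99 FPKM with vehicle. It was highest with CHX and rose by 0.40 ± 0.04 in RA with CHX against vehicle (adjusted p = 0.000116). Eif4g2 made up 39.9% ± 0.355 of the summed scaffold FPKM with RA and CHX, 56.4% ± 0.422 with RA and 51.7% ± 0.492 with vehicle (SD, n = 2).

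**Figure D3:**
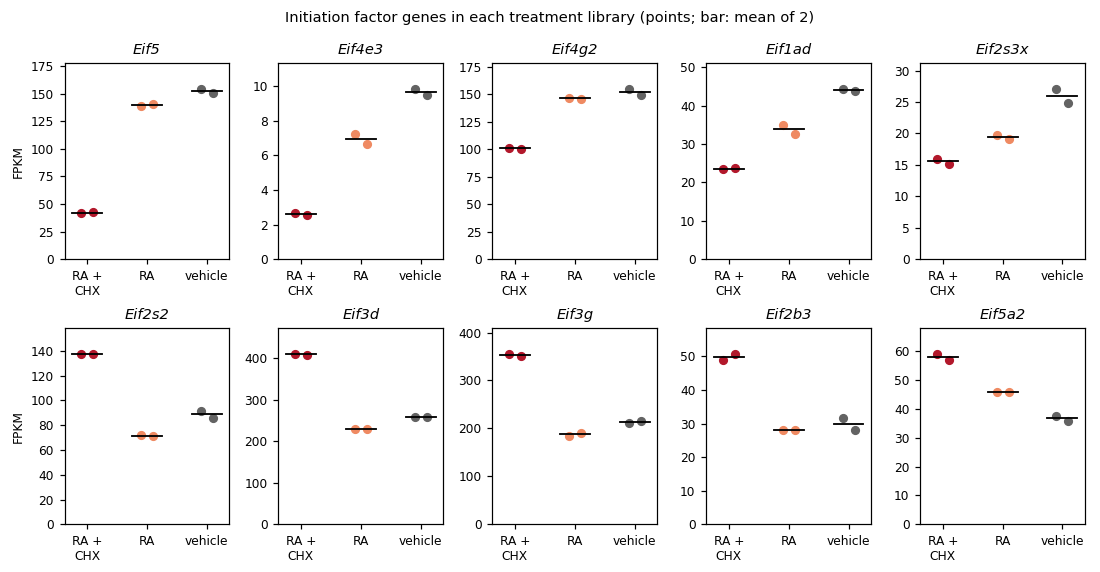
FPKM (y axis, from 0) of 10 members in each library of RA with CHX, RA and vehicle, where points are libraries and bars are means of 2. The upper row shows genes lower with RA and CHX than with vehicle, such as Eif5 at 42.2 and 42.44 FPKM against 154.5 and 150.7 FPKM, and the lower row shows genes that were higher.

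Late factors rose with CHX. Eif5b, the subunit joining gene, had 63.44 and 63.41 FPKM with RA and CHX, 38.44 and 38.42 FPKM with RA, and 41.62 and 41.33 FPKM with vehicle. Eif6 had 153.6 and 157.8 FPKM with RA and CHX, 96.19 and 89.96 FPKM with RA, and 101.2 and 106.6 FPKM with vehicle. Both were highest with CHX, at changes of 0.60 ± 0.03 and 0.58 ± 0.04 against vehicle (adjusted p = 1.24e-06 and 1.29e-05). The eIF5A genes moved apart with RA. Eif5a had 483.4 and 492.1 FPKM with RA and CHX, 460.7 and 428.4 FPKM with RA, and 572.7 and 556.9 FPKM with vehicle. Eif5a2 had 59.05 and 56.82 FPKM with RA and CHX, 45.66 and 45.65 FPKM with RA, and 37.52 and 35.86 FPKM with vehicle. The vehicle libraries were thus the highest for Eif5a and the lowest for Eif5a2, without overlap. With RA, Eif5a2 rose by 0.31 ± 0.04 (adjusted p = 0.000534) and Eif5a fell by 0.35 ± 0.04 (adjusted p = 0.000839), the call of Eif5a being lost under quantile normalization at -0.09.

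The 4 Argonaute genes did not move together. Eif2c4 had 2.302 and 2.275 FPKM with RA and CHX, 1.394 and 1.214 FPKM with RA, and 0.5533 and 0.5765 FPKM with vehicle. It rose by 1.07 ± 0.07 in RA with CHX against vehicle (adjusted p = 9.1e-06), though from levels near the filter. Eif2c3 had 6.759 and 6.752 FPKM with RA and CHX, 7.668 and 8.453 FPKM with RA, and 6.316 and 5.998 FPKM with vehicle, and was highest with RA alone. Eif2c2, the gene of the slicing Argonaute, had 3.235 and 3.352 FPKM with RA and CHX, 3.796 and 3.428 FPKM with RA, and 5.871 and 5.633 FPKM with vehicle. It was highest with vehicle and fell by 0.55 ± 0.06 with RA (adjusted p = 0.000567). Eif2c1, the most abundant of them, had 16.51 and 17.4 FPKM with RA and CHX, 15.41 and 15.42 FPKM with RA, and 16.16 and 16.68 FPKM with vehicle. Eif1ad, named for an eIF1A domain, had 23.52 and 23.69 FPKM with RA and CHX, 34.96 and 32.57 FPKM with RA, and 44.39 and 43.83 FPKM with vehicle. It fell in all 3 comparisons, by 0.87 ± 0.04 in RA with CHX against vehicle (adjusted p = 1.19e-06).

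Induced cells were compared with mSSC to ask how the factors changed on the way to meiosis. In idSG against mSSC, Eif4a2, Eif2c4 and Eif1 rose, Eif4e3 and Eif1ad fell, and 44 members were not called, where 17.9% of the 12626 genes tested were called higher and 10.7% lower. All 3 rises and 1 of the falls reached a log2 change of 0.5, as did 17.4% of all genes upward and 9.84% downward. The median change was -0.04 for the members and 0.05 for all genes. Higher calls made up 62.7% of the calls over all genes, against 49.7% under quantile normalization, which called 2 members higher and 4 lower. Of the 12626 genes tested, quantile normalization called 1748 higher and 1770 lower. Without mSSC replicate 1 or mSSC replicate 2 the rises were 1, Eif4a2, and the falls were 0 without mSSC replicate 1 or idSG replicate 2 and 1 without mSSC replicate 2 or idSG replicate 1.

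In iSC against mSSC, which shares the mSSC libraries, 8 members rose and 16 fell, where 26.2% of all genes were called higher and 25% lower, and the medians were -0.20 for the members and -0.03 for all genes. By 0.5 or more, 6 members rose and 15 fell, beside 25% and 22.6% of all genes. Leaving out mSSC replicate 1 left 2 rises and 5 falls, leaving out mSSC replicate 2 left 2 rises and 7 falls, and leaving out iSC replicate 1 left 4 rises. Eif4a2, Eif2c4, Eif3b, Eif4a3, Eif4e3 and Eif5a2 were called in each of the 6 fits without 1 library. In iSC against idSG, Eif3b, Eif5a2, Eif4a3, Eif2b4, Eif6 and Eif3g fell and 0 members rose, where 6.75% of all genes were called lower and 4.46% higher. All 6 falls reached 0.5, as did 6.69% of all genes. At an unadjusted p under 0.05 in limma, 7 members were higher and 13 lower, where 14.5% of all genes were higher and 19.1% lower. The 6 falls came to 0 without mSSC replicate 1, mSSC replicate 2, idSG replicate 1 or iSC replicate 1, and to 0 in a fit of these 2 groups alone.

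Sertoli cell transcripts moved with these groups. The 12 markers found of 13 listed summed to 6.678 and 7.496 FPKM in mSSC, 589.6 and 1486 FPKM in idSG, and 2189 and 2995 FPKM in iSC. Of these markers, 2 and 3 reached 1 FPKM in the mSSC libraries, 9 and 10 in the idSG libraries, and 10 in each iSC library. Clu, an abundant Sertoli cell gene, had 1.57 and 1.811 FPKM in mSSC, 291.9 and 742.8 FPKM in idSG, and 1212 and 2111 FPKM in iSC, whereas the receptor gene Fshr did not exceed 0.185 FPKM in any of them. The sort took GFP-positive cells. Peritubular and fibroblast markers summed to 65.69 and 196 FPKM in mSSC, 276.4 and 247.1 FPKM in idSG, and 699.2 and 532.7 FPKM in iSC. Of 10 tested, 3 rose and 2 fell in idSG against mSSC, where 17.9% of all genes were called higher and 10.7% lower. In iSC against mSSC 5 rose and 1 fell, beside 26.2% and 25% of all genes. Mean FPKM of Acta2 and Tagln was 0.6926 and 1.952 in mSSC and 218.3 and 165.2 in iSC. The change was below 0 for 3 genes, such as Lum, with means of 10.76 FPKM in mSSC and 1.202 FPKM in iSC. Among 7 germ cell markers, 4 fell and 1 rose in iSC against mSSC, and the iSC libraries differed from each other. Gfra1, a receptor gene of the stem cells, had 113.9 and 82.03 FPKM in mSSC, 19.12 and 20.92 FPKM in idSG, and 1.228 and 21.74 FPKM in iSC. Zbtb16, a transcription factor gene of undifferentiated spermatogonia, had 88.06 and 101.5 FPKM in mSSC, 14.85 and 11.05 FPKM in idSG, and 3.762 and 32.21 FPKM in iSC. For both genes, iSC replicate 2 lay nearer to mSSC than iSC replicate 1 did. Without iSC replicate 2, 7 members rose and 16 fell in iSC against mSSC, and 1 rose and 7 fell in iSC against idSG. The part of any of these markers in the changes of the initiation factor genes was not tested. In such bulk samples fewer cells of a type and less RNA per cell cannot be told apart.

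**Figure D4:**
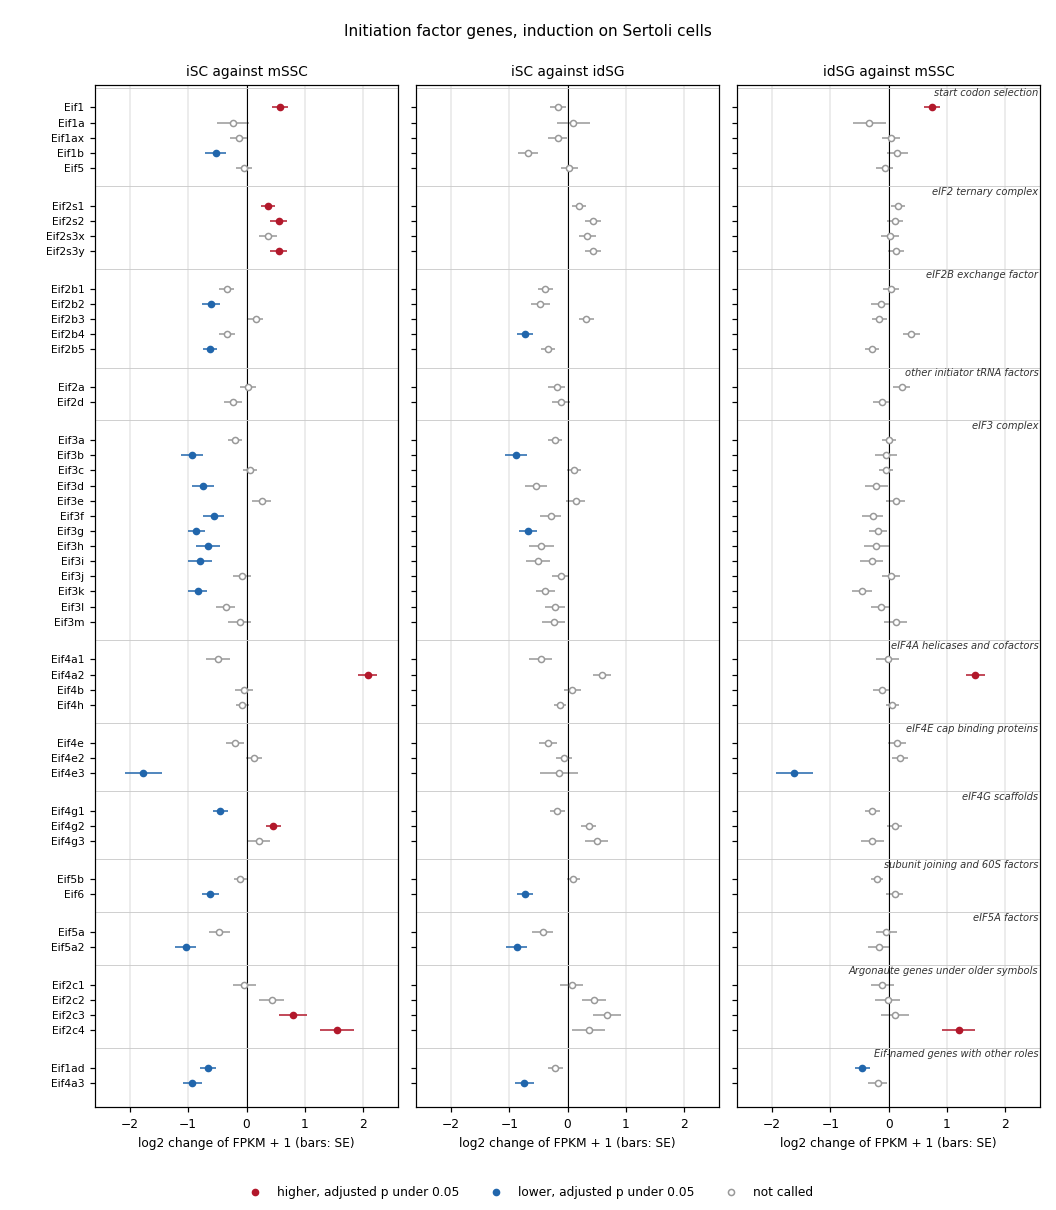
Log2 change of FPKM + 1 (x axis, bars are SE) of the 49 tested members (rows, grouped by role) in iSC against mSSC, iSC against idSG, and idSG against mSSC. Red points were called higher, blue points lower and open points were not called. Eif4a2 lies at 2.08 and 1.49 in the panels against mSSC, and Eif4e3 at -1.77 and -1.62.

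Eif4a2 had the largest rise of the members in both comparisons with mSSC. It had 57.24 and 49.69 FPKM in mSSC, 134.4 and 170.4 FPKM in idSG, and 217.3 and 241.1 FPKM in iSC. The stages did not overlap and each library lay above those of the stage before. The change was 2.08 ± 0.16 in iSC against mSSC (adjusted p = 0.000392) and 1.49 ± 0.16 in idSG against mSSC (adjusted p = 0.00241). Between iSC and idSG it was 0.59 ± 0.16, which was not called (adjusted p = 0.0574). When 1 library was left out, the highest adjusted p was 0.00416 in iSC against mSSC and 0.0211 in idSG against mSSC. Eif4a1 had 824.2 and 786.2 FPKM in mSSC, 886.7 and 708.1 FPKM in idSG, and 519.2 and 636.5 FPKM in iSC, and it was not called in any of these comparisons. Under quantile normalization it was called lower by limma in iSC against mSSC, at -0.33 (adjusted p = 0.03). The share of Eif4a2 in their summed FPKM was 6.22% ± 0.389 in mSSC, 16.3% ± 4.41 in idSG and 28.5% ± 1.43 in iSC (SD, n = 2). Exons of Eif4a2 overlap small nucleolar RNA genes, and the row of one of them, Snora81, had 224.7 and 109.4 FPKM in mSSC, 407.3 and 695.2 FPKM in idSG, and 528.3 and 488.5 FPKM in iSC.

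The windows of 250 bases before the starts of the helicase genes are shown with the marking used above. Eif4a2 led the rises in induction, and in the deposited values the pair moved in opposite directions with RA. The fall of Eif4a1 with RA was not called under quantile normalization.
Eif4a1, chr11:69672424-69672673, minus strand: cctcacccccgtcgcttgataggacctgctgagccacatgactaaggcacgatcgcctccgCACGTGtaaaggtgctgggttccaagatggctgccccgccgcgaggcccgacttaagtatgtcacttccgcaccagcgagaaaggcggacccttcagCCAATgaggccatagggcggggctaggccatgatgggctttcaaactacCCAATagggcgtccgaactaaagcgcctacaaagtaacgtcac
Eif4a2, chr16:23107218-23107467, plus strand: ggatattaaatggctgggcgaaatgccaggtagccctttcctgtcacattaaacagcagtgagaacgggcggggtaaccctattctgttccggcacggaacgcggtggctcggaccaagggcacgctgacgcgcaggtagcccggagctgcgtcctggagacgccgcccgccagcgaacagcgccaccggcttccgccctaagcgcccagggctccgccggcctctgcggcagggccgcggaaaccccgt
Eif4a1 held 1 CACGTG and 2 CCAAT boxes in this window, and the Eif4a2 window held neither.

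**Figure D5:**
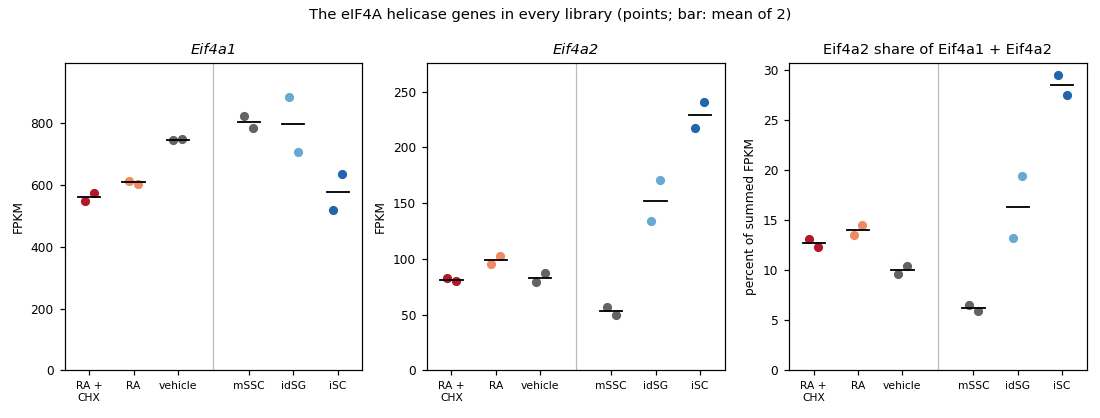
FPKM of Eif4a1 and Eif4a2 (left and middle, y axis from 0) and the percent of their summed FPKM held by Eif4a2 (right) in RA with CHX, RA and vehicle and in mSSC, idSG and iSC. Points are libraries and bars are means of 2. The share is 6.22% in mSSC, 16.3% in idSG and 28.5% in iSC, while the treatment means lie between 10% and 14%.

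Start codon factors diverged in induction as well. Eif1 had 247.8 and 239.4 FPKM in mSSC, 428.6 and 387.5 FPKM in idSG, and 346 and 384.6 FPKM in iSC, so that both induced stages were above mSSC. It rose by 0.74 ± 0.14 in idSG against mSSC (adjusted p = 0.0127) and by 0.58 ± 0.14 in iSC against mSSC (adjusted p = 0.0148), and neither call held without mSSC replicate 1 (adjusted p = 0.113 and 0.112) or mSSC replicate 2 (adjusted p = 0.116 and 0.132). Eif1b had 223.1 and 211.4 FPKM in mSSC, 280.1 and 207.8 FPKM in idSG, and 160.9 and 140 FPKM in iSC, lowest in iSC with a change of -0.53 ± 0.18 against mSSC (adjusted p = 0.0417), a call kept in 2 of the 6 fits without 1 library. Eif5, which fell so far with CHX, was not called in induction and had 173.1 and 166.7 FPKM in mSSC, 159 and 164 FPKM in idSG, and 180 and 151.5 FPKM in iSC.

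The eIF2 genes were higher in iSC. Eif2s1, Eif2s2 and Eif2s3y rose against mSSC (75%), where 26.2% of all genes were called higher. Eif2s3x was not called, at 0.37 ± 0.15 (adjusted p = 0.0794). Eif2s2 had 90.67 and 91.62 FPKM in mSSC, 105.7 and 91.97 FPKM in idSG, and 122.4 and 147.3 FPKM in iSC, the last above all others, with a change of 0.55 ± 0.14 in iSC against mSSC (adjusted p = 0.0173). Eif2s3y had 48.85 and 52.87 FPKM in mSSC, 59.03 and 51.57 FPKM in idSG, and 81.92 and 68.78 FPKM in iSC, again highest in iSC, with a change of 0.55 ± 0.14 (adjusted p = 0.0169). Both calls were lost without mSSC replicate 1, at adjusted p = 0.11 and 0.124, as was that of Eif2s1, at adjusted p = 0.257, and each of the 3 rises was called in 3 of the 6 fits without 1 library. In contrast, 2 of 5 eIF2B genes fell (40%) in iSC against mSSC, where 25% of all genes were called lower. Eif2b2 fell by 0.61 ± 0.16 and Eif2b5 by 0.63 ± 0.12 (adjusted p = 0.0176 and 0.00604). Among the fits without 1 library, Eif2b2 was called in 3 of 6, with an adjusted p of 0.114 without mSSC replicate 2, and Eif2b5 in 5 of 6, with 0.0651 without mSSC replicate 1.

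Of the 13 eIF3 genes, 7 fell (53.8%) in iSC against mSSC and 0 rose, with a median change of -0.56, also under quantile normalization, where 25% of all genes were called lower. At an unadjusted p under 0.05 in limma, 7 of them were lower and 0 higher, beside 29.1% and 29.4% of all genes. The 7 falls came to 3 without iSC replicate 1, with a median of -0.32, and to 2 without mSSC replicate 1 or mSSC replicate 2, and they were 8 without iSC replicate 2, with a median of -0.79. The 13 genes summed to 2706 and 2731 FPKM in mSSC, 2656 and 2232 FPKM in idSG, and 1695 and 2139 FPKM in iSC, where replicate 2 lay nearer to mSSC. The subunits called were Eif3b, Eif3d, Eif3f, Eif3g, Eif3h, Eif3i and Eif3k. Of these, Eif3b was called in all 6 fits without 1 library and Eif3f and Eif3h in 1 fit each. Eif3b, a core subunit gene, had 210 and 209.4 FPKM in mSSC, 224.9 and 182 FPKM in idSG, and 93.18 and 128.2 FPKM in iSC, where iSC was low and the other stages overlapped. Its change was -0.93 ± 0.19 in iSC against mSSC (adjusted p = 0.00706). Eif3g had 348.7 and 330.7 FPKM in mSSC, 333.2 and 268.4 FPKM in idSG, and 179.9 and 192.7 FPKM in iSC, with a change of -0.86 ± 0.15 (adjusted p = 0.0046), lost at adjusted p = 0.0505 without mSSC replicate 1. Eif3c and Eif3e, at 0.06 ± 0.12 and 0.26 ± 0.16, were not called.

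Among the cap-binding and scaffold genes, Eif4e3 had 13.06 and 7.115 FPKM in mSSC, 3.217 and 1.875 FPKM in idSG, and 2.213 and 2.056 FPKM in iSC. The mSSC libraries were the high ones and differed from each other, and the induced stages overlapped. It fell by 1.77 ± 0.32 in iSC against mSSC (adjusted p = 0.00455) and by 1.62 ± 0.32 in idSG against mSSC (adjusted p = 0.0129), the second call being lost without mSSC replicate 1 (adjusted p = 0.0761) or idSG replicate 2 (adjusted p = 0.0808). Eif4e had 75.39 and 78.45 FPKM in mSSC, 97.19 and 74.32 FPKM in idSG, and 67.59 and 66.34 FPKM in iSC and was not called. Eif4g2 had 149.7 and 144.3 FPKM in mSSC, 158.1 and 156.7 FPKM in idSG, and 215.7 and 190.2 FPKM in iSC. It rose by 0.46 ± 0.13 in iSC against mSSC (adjusted p = 0.0221) while Eif4g1 fell by 0.45 ± 0.13 (adjusted p = 0.023). Both of these calls were lost without mSSC replicate 1 (adjusted p = 0.129 and 0.201). Eif4g2 held 48.5% ± 0.907 of the summed scaffold FPKM in mSSC, 55.1% ± 1.96 in idSG and 62.2% ± 0.621 in iSC (SD, n = 2).

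Eif5a2 had 42.23 and 37.77 FPKM in mSSC, 39.52 and 31.8 FPKM in idSG, and 16.61 and 21.46 FPKM in iSC. The iSC libraries were well below the others, and the change was -1.04 ± 0.18 in iSC against mSSC (adjusted p = 0.00382). Eif5a was not called, at -0.47 ± 0.18 (adjusted p = 0.059). It was called lower in limma under quantile normalization, at -0.48 (adjusted p = 0.00729), and with only the 2 groups compared (adjusted p = 0.0395). Eif4a3 had 270 and 241.5 FPKM in mSSC, 251.9 and 199.4 FPKM in idSG, and 128.6 and 138.3 FPKM in iSC, and it fell by 0.93 ± 0.16 in iSC against mSSC (adjusted p = 0.00386). Eif6 fell by 0.62 ± 0.14 in the same comparison (adjusted p = 0.0102), a call kept in 4 of the 6 fits without 1 library. The Argonaute gene Eif2c4 had 0.7284 and 0.9529 FPKM in mSSC, 3.48 and 2.978 FPKM in idSG, and 6.077 and 3.156 FPKM in iSC. It rose by 1.56 ± 0.29 in iSC against mSSC (adjusted p = 0.005), and Eif2c3 rose by 0.79 ± 0.24 (adjusted p = 0.0291), a call lost without mSSC replicate 1, mSSC replicate 2 or iSC replicate 1.

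Related genes that regulate or follow initiation gave their own counts. Of 8 genes of the eIF2 kinases, their cofactors and the eIF2 phosphatase, 3 rose (37.5%) and 4 fell (50%) in RA with CHX against vehicle, where 36.1% of all genes were called higher and 43.2% lower. The phosphatase subunit gene Ppp1r15a fell by 0.97 ± 0.07 (adjusted p = 1.5e-05) and the PERK kinase gene Eif2ak3 rose by 0.52 ± 0.04 (adjusted p = 8.99e-06). Of 17 genes that act on the cap complex or in mTOR signalling, 9 rose (52.9%) and 5 fell (29.4%). Mknk2, an eIF4E kinase gene, fell by 1.14 ± 0.05 (adjusted p = 1.08e-06), and Tsc1, an mTOR inhibitor gene, rose by 1.00 ± 0.05 (adjusted p = 1.89e-06). Of 10 tested elongation and termination genes, 3 rose and 6 fell, Eef2k among the falls at -1.23 ± 0.09 (adjusted p = 1.14e-05). Of 11 genes of poly(A)-binding proteins and other helpers, 4 rose (36.4%) and 5 fell (45.5%), near the shares of all genes, and of 8 mitochondrial translation genes 3 rose and 1 fell.

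With RA against vehicle, 7 of 10 elongation and termination genes fell and 0 rose, with a median of -0.23, where 29.9% of all genes were called lower and 22.8% higher. At an unadjusted p under 0.05 in limma, 7 were lower and 1 higher, whereas the shares of all genes given here are at an adjusted p. Eef1g fell by 0.44 ± 0.03 (adjusted p = 0.0001). Of the 17 cap and mTOR genes, 9 fell and 3 rose, led by Larp1, a regulator of the messengers of ribosomal proteins, at -0.46 ± 0.03 (adjusted p = 7.72e-05). In iSC against mSSC, 8 of these 17 fell (47.1%) and 4 rose (23.5%), where 25% of all genes were called lower and 26.2% higher, so that the rises lay near the background. Eif4ebp2, the gene of an inhibitor that holds eIF4E, had 106.2 and 96.64 FPKM in mSSC, 62.72 and 61.99 FPKM in idSG, and 39.39 and 38.43 FPKM in iSC. The stages did not overlap, and the change was -1.36 ± 0.12 in iSC against mSSC (adjusted p = 0.000554). Of the helpers, 4 of 11 rose (36.4%) and 2 fell (18.2%). Ddx3y, a Y-linked helicase gene, had 8.881 and 7.933 FPKM in mSSC, 18.32 and 22.42 FPKM in idSG, and 42.16 and 36.08 FPKM in iSC, a change of 2.09 ± 0.16 in iSC against mSSC (adjusted p = 0.000401). Each stage was above the one before it.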

How the data were processed

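RNA-seq of 12 libraries was analysed from gene tables in FPKM that the authors deposited. Per the submitters' processing notes, the tools were TopHat2 2.0.6 and Cuffdiff with the mm9 build, and nothing in the sources used here gives strand handling or the scaling option. The absolute depth is unknown, and the spacing of low values put each library at 82.9% to 99.3% of the depth of the first of its experiment, where it could be read. A vehicle table listed 25 lines again, none of a member, and these were counted once.

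Values were taken as log2(FPKM + 1), and a gene entered the test, made with limma 3.58.1 in R 4.3.3, where its mean in an experiment reached 1 FPKM, using a variance trend and Benjamini-Hochberg adjustment over all genes tested. Treatment and induction were fitted apart, each with 3 residual degrees of freedom. An exact permutation test of 2 libraries against 2 cannot give a p under 0.333 and was not used. Members, gene lists and tests were chosen with earlier results of these data known. Every member may be named. By rule, values of each library are given for up to 4 called rises and 4 called falls a comparison (largest first, mean of at least 5 FPKM, groups apart), the most abundant member of each role and the paralog sets, and up to 2 called rises and 2 called falls represent each related list. Further members, the comparison of Eif3d with Eif3h and the small nucleolar RNA rows were chosen after their values were seen, and of the genes the rule allows, only some are printed.

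Promoter windows came from RefSeq on GRCm38.p6, in which all 50 members were found by symbol or older symbol and 40 had a promoter window. Plots were drawn with matplotlib 3.10.9. Alternatives covered the pseudocount, the filter, scaling, the variance trend, a replicate block, the libraries in the fit, the call rule and leaving out each library.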

Additional observations from a re-analysis of the deposited data

How the results depend on the processing

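Leaving out 1 library at a time gave 4 to 5 rises and 28 to 32 falls among the members in RA against vehicle, 25 to 26 and 11 to 13 in RA with CHX against vehicle, and 32 to 35 and 7 to 8 in RA with CHX against RA. The ranges were 1 to 3 rises and 0 to 2 falls in idSG against mSSC, 0 to 1 and 0 to 7 in iSC against idSG, and 2 to 8 and 5 to 16 in iSC against mSSC. The libraries behind the low ends are named beside the induction results, and 1 rise in iSC against idSG appeared without iSC replicate 2.

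Quantile normalization gave 14 falls in RA against vehicle, 4 falls in idSG against mSSC and 1 rise in iSC against idSG. It turned the direction of Eif4e in RA against vehicle, to 0.04 (adjusted p = 0.314), and of Eif5a in RA with CHX against RA, to -0.07 (adjusted p = 0.151). The cause was not tested. A fit of all 12 libraries gave 0 rises and 2 falls in RA against vehicle, 7 falls in RA with CHX against vehicle, 5 falls in RA with CHX against RA, 6 falls in idSG against mSSC, and 9 rises and 18 falls in iSC against idSG. By construction it shares 1 estimate of spread between both experiments. A least absolute log2 change of 0.5 left 1 rise and 2 falls in RA against vehicle, 11 rises and 7 falls in RA with CHX against vehicle, 15 rises and 3 falls in RA with CHX against RA, and 1 fall in idSG against mSSC.

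The falls in idSG against mSSC came to 1 with no filter, with a filter at a mean of 5 FPKM and without the variance trend. Those in iSC against idSG came to 1 with no filter, 3 without the trend and 0 with only the 2 groups compared. With the replicate number as a replicate block, they came to 3, and no other count moved by over 1.5 times. Same-numbered libraries did not deviate together over all genes tested, the correlations lying between -0.025 and 0.0918. With 2 libraries a group, this cannot tell whether same-numbered libraries shared a preparation.

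Of 1388 values of single genes under the alternatives that kept every library of the groups compared, 1309 kept their state as called or not called. A call was lost in 51 and gained in 26, and in 2 the direction turned where either fit had a call. A turn of direction without a call in either fit counts as kept, and genes never called are among the values. With 2 libraries a group and unknown depth, small differences of low genes such as the Argonaute genes are the least certain.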

Other observations

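Small nucleolar RNA genes lie within exons of members in the annotation. The row of Snora28, which overlaps Eif5, had 658.2 and 1478 FPKM with RA and CHX, 3336 and 2832 FPKM with RA, and 1997 and 3551 FPKM with vehicle, so that the CHX libraries were the low ones. It was listed at 0 in all 6 libraries of the induction experiment. Snora81, which overlaps Eif4a2, had 72.93 and 65.36 FPKM with RA and CHX, 86.61 and 58.79 FPKM with RA, and 48.79 and 80.3 FPKM with vehicle, and these groups overlapped. Whether reads of these rows and of their host genes were shared was not tested.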
